A study of Danio rerio with 12 samples.

Results

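The transcripts described are those of ctnnb1 (ENSDARG00000014571) and axin2 (ENSDARG00000100149), 2 genes of the canonical Wnt pathway, in juvenile zebrafish gonads, together with 1 more gene ID that was listed as lef1. The members were chosen by gene ID, as 3 of the 32520 genes in the count table, by a rule that uses no measured value. That last ID, ENSDARG00000021789, carries the symbol myoc (myocilin) in the reference table of gene names, and lef1 has an ID of its own, ENSDARG00000031894. The listed ID was therefore described as myoc, and lef1 was added by its symbol and described beside it. All 4 genes passed the filter on low counts, as did 19292 genes in all.

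Wnt ligands bind Frizzled receptors and Lrp co-receptors at the cell surface. Without ligand, a destruction complex built on Axin and Apc marks β-catenin for degradation, and with ligand β-catenin accumulates and enters the nucleus, where it activates genes together with DNA-binding proteins of the TCF/LEF family. In the mouse, Rspo1, Wnt4 and β-catenin act in the somatic cells of the fetal ovary and oppose testis development, while Ctnnb1 protein also holds cadherin junctions together. ctnnb1 encodes β-catenin, lef1 encodes a TCF/LEF protein, and axin2 encodes a scaffold of the destruction complex whose transcription is itself a common response to the pathway. myoc encodes a secreted glycoprotein with an olfactomedin domain, best known from the drainage tissue of the eye.

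RNA-seq was performed on 12 gonads of AB strain zebrafish, 1 gonad per library: 2 ovaries and 4 testes at 25 days post fertilization (dpf), and 3 ovaries and 3 testes at 30 dpf. All 12 carried Tg(piwil1-egfp-nos3UTR)ihb327Tg, a reporter that makes the germ cells green by fluorescence, so no group was free of it, and the labels give no other treatment. The cDNA of each gonad was amplified before the library was made, and the labels do not say whether different gonads came from different clutches, so p-values measure only the spread between these samples. The columns carry a gonad size, an age and a number. Following the study's own description, the big gonads are called ovaries here and the small ones testes, and the numbers are those of the columns.

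The total count was 4471588 to 5331223 per gonad, with 22117 to 23829 genes detected. The marker genes of oocytes separated the labelled sexes: their summed level was 2969 to 8403 CPM (counts scaled to library size, here after the trimmed mean of M values, TMM) in ovaries and 141 to 865 in testes. The summed level of the markers of male supporting cells did not. It was 453 to 1042 CPM in the 5 ovaries, 363 to 1429 in the 4 testes at 25 dpf and 1293 in testis 1 at 30 dpf. In testes 2 and 3 at 30 dpf it was 4654 and 6437 CPM. Of the single markers, a sox9 gene (ENSDARG00000003293) separated the sexes, at 2.62 to 8.70 CPM in ovaries and 9.69 to 43.6 in testes. The others overlapped. Testis 1 at 25 dpf also held 17827 CPM of markers of muscle and of neighbouring organs, against 80.4 to 5311 in the other 11 gonads. Each comparison was a quasi-likelihood test in edgeR over all 19292 genes, with p-values adjusted by the Benjamini-Hochberg method and called under 0.05. Log2 fold changes are ovary against testis, or 30 against 25 dpf, so that a negative value means higher in testes or lower at 30 dpf.

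ctnnb1 was abundant and nearly even over the groups. Its level was 726 and 716 CPM in the 2 ovaries at 25 dpf, and 796, 673 and 662 in the 3 ovaries at 30 dpf. In the testes it was 833, 901, 973 and 766 CPM at 25 dpf, and 952, 657 and 760 at 30 dpf. The lowest and the highest of the 12 values both came from testes, so the ovaries lay inside the range of the testes. The group means ran from 868 ± 88.9 CPM (SD, n = 4) in testes at 25 dpf, through 790 ± 150 (SD, n = 3) in testes at 30 dpf and 721 ± 7.19 (SD, n = 2) in ovaries at 25 dpf, to 710.3 ± 74.2 (SD, n = 3) in ovaries at 30 dpf, and every neighbouring pair in this order overlapped.

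Over both ages the log2 fold change of ctnnb1 was -0.21 (SE 0.117, 95% interval -0.47 to 0.04, edgeR adjusted p = 0.161), which did not pass the test. At 25 dpf the difference was -0.27 (SE 0.171, edgeR adjusted p = 0.302), and at 30 dpf it was -0.15 (SE 0.159, edgeR adjusted p = 0.48). Between ages it was -0.02 (SE 0.178, edgeR adjusted p = 0.979) in ovaries and -0.14 (SE 0.149, edgeR adjusted p = 0.762) in testes. With upper-quartile scaling the difference over both ages was called, at -0.35 (adjusted p = 0.0348), but that scaling also moved the median of all genes from -0.13 to -0.27.

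**Figure D1:**
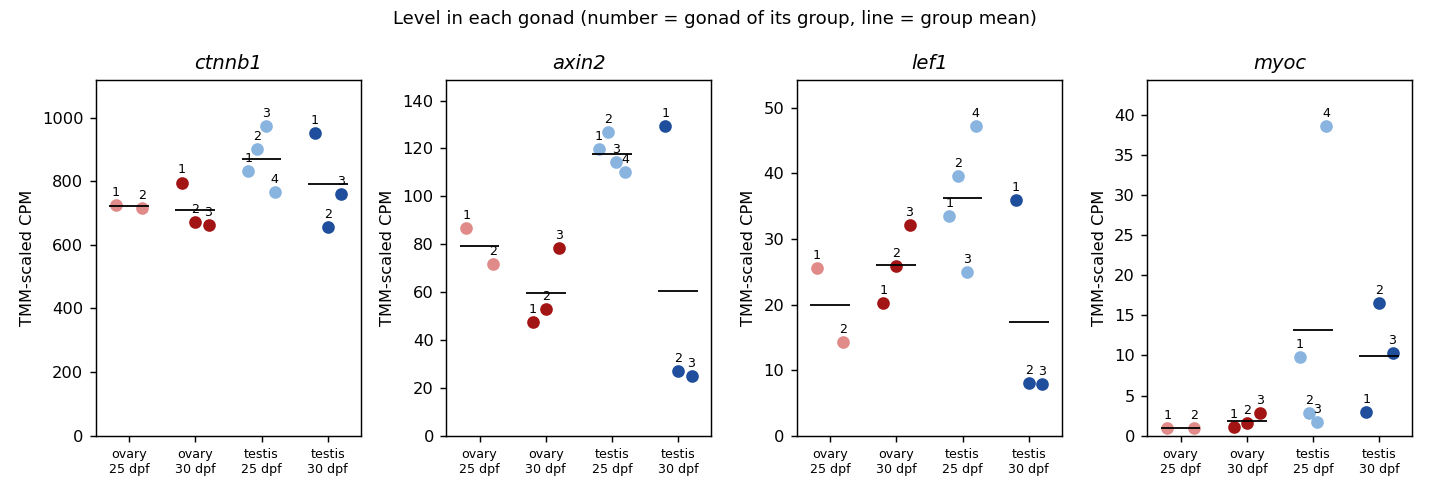
TMM-scaled CPM (vertical axis, linear from 0, with a different range for each gene) of ctnnb1, axin2, lef1 and myoc in each of 12 gonads, arranged by sex and age. Points are single gonads with their number and lines are group means. The ovaries lie within the range of the testes for ctnnb1, axin2 and lef1, and testes 2 and 3 at 30 dpf lie lowest for axin2 and lef1.

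axin2 differed more among gonads than ctnnb1, and the spread was largest in the testes at 30 dpf. Its level was 86.6 and 71.6 CPM in ovaries at 25 dpf, and 47.3, 52.9 and 78.5 in ovaries at 30 dpf. In testes it was 119.6, 126.7, 114.4 and 110.0 CPM at 25 dpf, and 129.3, 27.0 and 25.0 at 30 dpf. The 4 testes at 25 dpf and testis 1 at 30 dpf were thus above all 5 ovaries, while testes 2 and 3 at 30 dpf were below all of them. The mean of 118 ± 7.2 CPM (SD, n = 4) in testes at 25 dpf lay above 79.1 ± 10.6 (SD, n = 2) in ovaries at 25 dpf without overlap, and the latter overlapped with 60.4 ± 59.6 (SD, n = 3) in testes at 30 dpf, which overlapped with 59.6 ± 16.6 (SD, n = 3) in ovaries at 30 dpf.

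The difference between sexes in axin2 did not pass the test. It was -0.30 over both ages (SE 0.371, 95% interval -1.11 to 0.52, edgeR adjusted p = 0.538), -0.57 at 25 dpf (SE 0.547, edgeR adjusted p = 0.499) and -0.02 at 30 dpf (SE 0.508, edgeR adjusted p = 0.978). From 25 to 30 dpf it was -0.96 in testes (SE 0.483, edgeR adjusted p = 0.434) and -0.41 in ovaries (SE 0.562, edgeR adjusted p = 0.827). With any single gonad left out, the difference at 25 dpf stayed at -0.68 to -0.40. The change in ovaries stayed at -0.69 to -0.24. A single library decided the values that include testes at 30 dpf. Without testis 1 at 30 dpf, axin2 was higher in ovaries than in testes at 30 dpf, by 1.19 (SE 0.229, edgeR adjusted p = 0.0047), and it fell by 2.18 from 25 to 30 dpf in testes (edgeR adjusted p = 0.00746). The sign over both ages also turned, to 0.31 (edgeR adjusted p = 0.123), without passing the test.

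lef1 was low in the same testes as axin2. Its level was 25.5 and 14.3 CPM in ovaries at 25 dpf, and 20.2, 25.9 and 32.2 in ovaries at 30 dpf. In testes it was 33.4, 39.6, 25.0 and 47.2 CPM at 25 dpf, and 35.9, 8.0 and 7.9 at 30 dpf. As with axin2, testes 2 and 3 at 30 dpf were the lowest of the 12 gonads, with 39 counts each, and testis 1 lay among the testes of 25 dpf. Group means were 36.3 ± 9.41 CPM (SD, n = 4) in testes at 25 dpf, 26.1 ± 6.01 (SD, n = 3) in ovaries at 30 dpf, 19.9 ± 7.94 (SD, n = 2) in ovaries at 25 dpf and 17.3 ± 16.2 (SD, n = 3) in testes at 30 dpf, and each overlapped with the next.

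None of the 6 comparisons of lef1 passed the test. The sex difference was -0.14 over both ages (SE 0.386, 95% interval -0.98 to 0.71, edgeR adjusted p = 0.796), -0.87 at 25 dpf (SE 0.578, edgeR adjusted p = 0.324) and 0.59 at 30 dpf (SE 0.532, edgeR adjusted p = 0.409). The test of whether it depended on age gave 1.46 (SE 0.784, edgeR adjusted p = 0.548), while for axin2 it gave 0.55 (SE 0.742, edgeR adjusted p = 0.835) and for ctnnb1 0.12 (SE 0.232, edgeR adjusted p = 0.896). From 25 to 30 dpf lef1 was at -1.07 in testes (SE 0.505, edgeR adjusted p = 0.4) and at 0.39 in ovaries (SE 0.597, edgeR adjusted p = 0.846). Without testis 1 at 30 dpf, lef1 was higher in ovaries at 30 dpf by 1.71 (edgeR adjusted p = 0.00804) and fell by 2.19 with age in testes (edgeR adjusted p = 0.0376). The dependence on age did not pass the test there either, at 2.58 for lef1 (edgeR adjusted p = 0.175) and 1.77 for axin2 (edgeR adjusted p = 0.13).

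axin2 and lef1 varied together across the gonads. On the log2(CPM + 1) scale Pearson's r was 0.887 and Spearman's rho 0.804 over 12 gonads, which share their libraries and scaling factors. The correlation was 0.962 over the 7 testes and 0.204 over the 5 ovaries, and over the 10 gonads left without testes 2 and 3 at 30 dpf, the farthest from the median of axin2, it was 0.641. Much of the relation therefore rested on those 2 gonads. lef1 ranked 15 among 19291 other genes by correlation with axin2, and axin2 ranked 4 for lef1. ctnnb1 had r = 0.612 with axin2 and 0.412 with lef1, and myoc had -0.158 and -0.057.

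**Figure D2:**
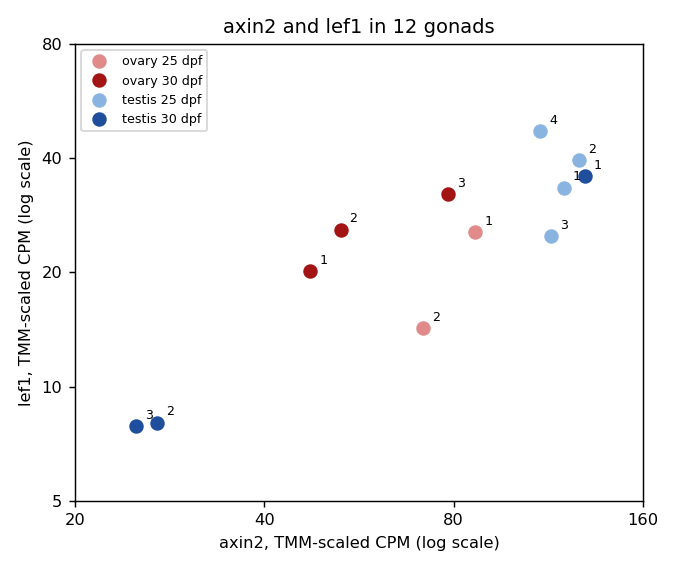
Level of lef1 (vertical, TMM-scaled CPM, log scale) against axin2 (horizontal, TMM-scaled CPM, log scale) in 12 gonads, coloured by sex and age and numbered within each group. Testes 2 and 3 at 30 dpf lie at the lower left, at about 8 CPM of lef1 and 25 to 27 CPM of axin2, apart from the other 10 gonads.

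The 5 genes most correlated with axin2 were lhx9 (r = 0.939), cndp1 (0.935), foxl2l (0.933), irx3 (0.929) and irx5 (0.927), over 12 gonads. Those most correlated with lef1 were lhx9 (0.938), irx5 (0.902), ndp (0.895), axin2 itself (0.887) and irx3 (0.882). lhx9 encodes a LIM homeodomain factor of the gonadal somatic cells, irx3 and irx5 encode Iroquois homeodomain factors, and ndp encodes Norrin, a secreted ligand of Frizzled-4. foxl2l encodes a forkhead factor that in zebrafish is found in germ cells on the way to oocytes, and cndp1 encodes a dipeptidase. lhx9 was 99.9, 135, 66.6 and 95.1 CPM in testes at 25 dpf, and 119, 13.0 and 10.1 CPM at 30 dpf. Its 5 ovaries lay between 42.2 and 85.4 CPM, and testes 2 and 3 at 30 dpf were the lowest. foxl2l was 166 to 304 CPM in testes at 25 dpf, 185, 53.8 and 19.8 at 30 dpf, and 37.6 to 167 in ovaries. Both genes were picked for their correlation over these same gonads, so their low levels there are no separate evidence. Without testes 2 and 3 at 30 dpf, the 5 correlations with axin2 ran from 0.763 (irx3) to 0.955 (foxl2l) over 10 gonads, with lhx9 at 0.808. The 5 with lef1 were lower than over 12 gonads, from 0.544 (irx3) to 0.781 (lhx9). With Spearman's rho none of the 5 genes of axin2 remained, and the list of lef1 also changed.

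Marker genes of the somatic cells also set testes 2 and 3 at 30 dpf apart. amh, the anti-Müllerian hormone of male supporting cells, was at 530 and 1041 CPM in them, 15.5 in testis 1, 9.15 to 36.4 in testes at 25 dpf and 12.04 to 31.2 in ovaries. cyp11c1, a steroid hydroxylase of the 11-oxygenated androgens, was at 191 and 362 CPM, against 56.4 in testis 1. It was 0.946 to 49.95 CPM in testes at 25 dpf and 0.612 to 3.01 in ovaries. The summed level of the 5 markers of female supporting cells moved the other way. The sum was 30.9 and 27.5 CPM in testes 2 and 3 and 151 in testis 1. It was 125 to 256 CPM in testes at 25 dpf and 74.7 to 169 in ovaries. This holds for the sum and need not hold for each marker. No marker of either list was at 0 in any gonad. hbaa1, a haemoglobin gene and the only erythrocyte marker matched, was at 950 and 489 CPM in testes 2 and 3. It was 30.6 to 139.6 CPM in all other gonads. In whole gonads, fewer cells of a type and less RNA per cell cannot be told apart. The part of these cell types in the levels of axin2 and lef1 was not tested.

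**Figure D3:**
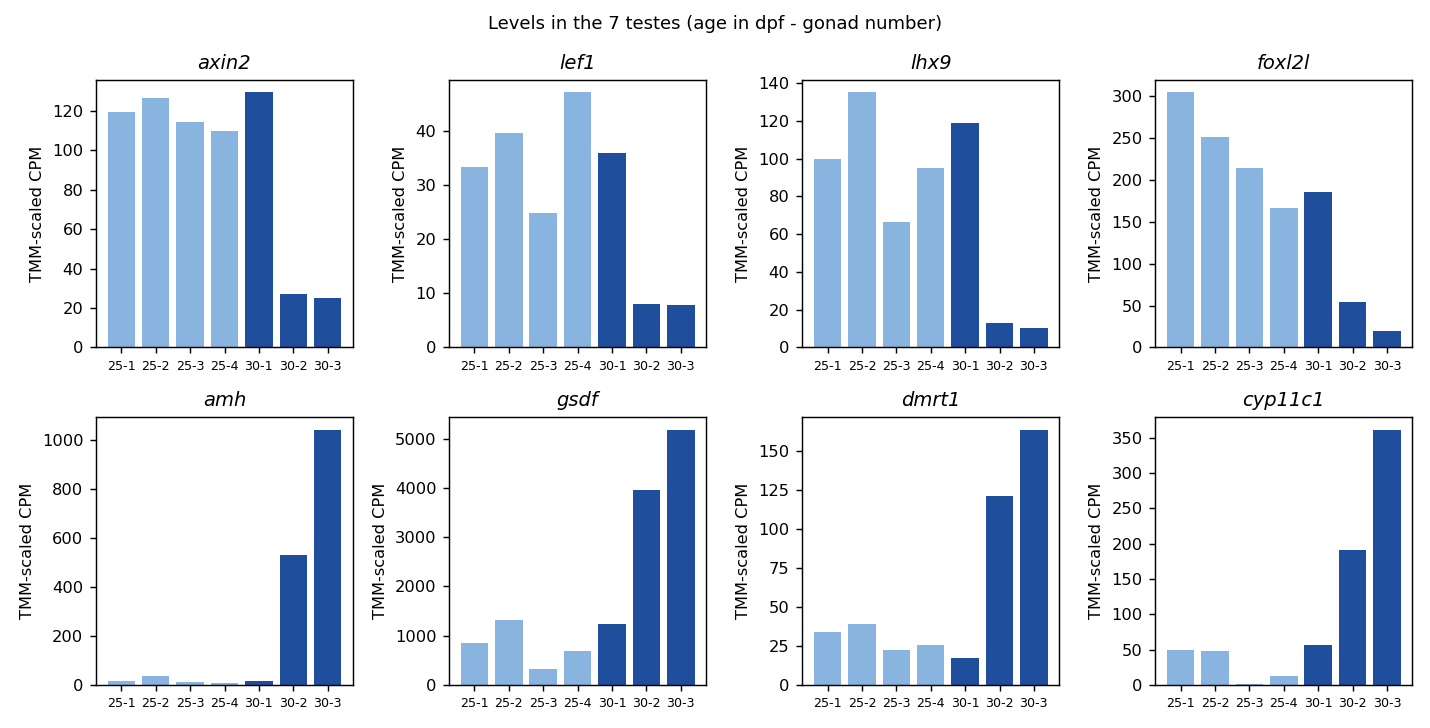
TMM-scaled CPM (vertical axis, linear from 0, with a different range for each gene) of axin2, lef1, lhx9 and foxl2l (upper row) and of amh, gsdf, dmrt1 and cyp11c1 (lower row) in each of the 7 testes, named by age in dpf and number, light bars for 25 dpf and dark bars for 30 dpf. Testes 2 and 3 at 30 dpf are low in the upper row and high in the lower row. Testis 1 at 30 dpf resembles the testes of 25 dpf in both, as with amh at 15.5 CPM against 530 and 1041. Its cyp11c1 lies above all testes of 25 dpf. The genes lhx9 and foxl2l were picked for their correlation with axin2 over all gonads.

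The 5 genes most correlated with ctnnb1 were hdac1 (r = 0.933), dclre1b (0.93), pkdccb (0.921), vtg3 (0.912) and a gene with no common name (ENSDARG00000031658, 0.911). hdac1 encodes a histone deacetylase and ranged from 482 to 855 CPM, and dclre1b encodes a nuclease that acts at telomeres. vtg3, a yolk protein gene, did not exceed 3.59 CPM. Without testis 3 at 25 dpf and testis 1 at 30 dpf, the farthest from the median of ctnnb1, these 5 correlations were 0.828 to 0.926 over 10 gonads.

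myoc was higher in testes than in ovaries. It had 5 and 5 counts in ovaries at 25 dpf and 4, 6 and 12 in ovaries at 30 dpf, which is 1.0, 1.0, 1.1, 1.6 and 2.8 CPM. In testes it was 9.8, 2.8, 1.7 and 38.6 CPM at 25 dpf, from 45, 16, 9 and 215 counts, and 3.0, 16.5 and 10.3 CPM at 30 dpf, from 15, 80 and 51 counts. A floor of 3 counts, which covers counting error only, was 0.528 to 0.806 CPM, so the ovaries were close to it. Testis 3 at 25 dpf lay inside the range of the ovaries and testis 4 at 25 dpf was the highest of all. The testis with the muscle markers, testis 1 at 25 dpf, was at the median of the testes (9.77 CPM) and above all ovaries. The part of carried-over tissue in the level of myoc was not tested. The means were 13.2 ± 17.3 CPM (SD, n = 4) in testes at 25 dpf and 9.93 ± 6.75 (SD, n = 3) in testes at 30 dpf, which overlapped, then 1.81 ± 0.876 (SD, n = 3) in ovaries at 30 dpf and 1.0 ± 0.0222 (SD, n = 2) in ovaries at 25 dpf, which did not overlap with their neighbours in this order. Between the ovary groups the nearest values were 1.08 and 1.02 CPM, from 4 and 5 counts, a gap within counting error.

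The log2 fold change of myoc over both ages was -3.06 (SE 0.848, 95% interval -4.91 to -1.2, edgeR adjusted p = 0.0134), an 8.32-fold higher level in testes. At a single age it did not pass, with -3.69 at 25 dpf (SE 1.31, edgeR adjusted p = 0.0826) and -2.43 at 30 dpf (SE 1.07, edgeR adjusted p = 0.0998), while DESeq2 called it at both ages, with adjusted p = 0.00673 and 0.0386. The call over both ages was lost without ovary 1 (edgeR adjusted p = 0.0604) or ovary 2 (edgeR adjusted p = 0.0704) at 25 dpf. The background of calls was high: 21.3% of all tested genes were called higher in testes and 21.9% higher in ovaries over both ages. The age comparisons of myoc gave 0.85 in ovaries (SE 1.34, edgeR adjusted p = 0.854) and -0.41 in testes (SE 0.897, edgeR adjusted p = 0.901), and the test of whether sex and age interacted gave 1.26 (SE 1.61, edgeR adjusted p = 0.825). The genes most correlated with myoc were a gene with no common name (ENSDARG00000102572, r = 0.923), angptl7 (0.905), qpct (0.896), bmp2 (ENSDARG00000041430, 0.894) and matk (0.891), and the last 4 of these did not exceed 6.73 CPM in any gonad. Testis 4 at 25 dpf and testis 2 at 30 dpf were the farthest from the median of myoc. Without them these correlations were 0.76 (angptl7) to 0.928 over 10 gonads. None of these genes remained with Spearman's rho.

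Of 8 near relatives of the members, only tcf7l1 was called over both ages. In that comparison 21.3% of all tested genes were called higher in testes and 21.9% higher in ovaries. ctnnb2, the second β-catenin gene, was 365 to 561 CPM in ovaries and 365 to 662 in testes, with a log2 fold change of -0.003 over both ages (SE 0.157, 95% interval -0.35 to 0.34, edgeR adjusted p = 0.991). Reads shared between the 2 β-catenin genes could have been lost or split by the authors' counting. axin1, the other Axin scaffold, was 50.7 to 88.1 CPM in ovaries and 53.5 to 124 in testes (log2 fold change -0.16, SE 0.184, edgeR adjusted p = 0.511). Among the other TCF factors, tcf7l1 (ENSDARG00000038159), known mainly as a repressor, was higher in testes, at 54.0 to 65.1 CPM against 36.7 to 43.3 in ovaries (-0.57, SE 0.105, edgeR adjusted p = 0.00143). tcf7l2 had -1.03 (SE 0.395, edgeR adjusted p = 0.0539), which DESeq2 called (adjusted p = 0.0307), tcf7 had 0.74 (SE 0.615, edgeR adjusted p = 0.346) and tcf7l1b had -0.16 (SE 0.265, edgeR adjusted p = 0.65). Of the 2 factors tied to the mouse ovary, wnt4 had -0.16 (SE 0.24, edgeR adjusted p = 0.609), and rspo1 had 0.64 (SE 0.355, edgeR adjusted p = 0.162) at 0.803 to 3.67 CPM in all gonads.

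A wider list of 111 Wnt pathway genes in 8 roles, chosen with earlier results of these data known, held 88 that passed the filter. Over both ages 28 of the 88 were called higher in testes (31.8%, against 21.3% of all genes) and 7 higher in ovaries (7.95%, against 21.9%), and 53 were not called. The median log2 fold change was -0.46 in the list and -0.13 over all genes. Markers of several cell types differed in the same comparison. Higher in ovaries were 6 of 6 oocyte and 4 of 5 germ cell markers. The other germ cell marker, nanos2, was not called, at 0 to 1.78 CPM in ovaries and 1.0 to 5.28 in testes. Higher in testes were 4 of 5 markers of male supporting cells, 3 of 4 of steroid-producing cells and 2 of 3 of endothelium. So were 1 of 3 of leukocytes and 3 of 7 of organs and muscle that could be carried over. The other marker of steroid-producing cells, insl3, was not called, at 2.45 to 6.28 CPM in ovaries and 0.602 to 3.63 in testes. The part of all these cell types in the Wnt calls was not tested. At 25 dpf 10 of the 88 Wnt genes were higher in testes and 1, cdx4, in ovaries (background 4.59% and 8.64%). At 30 dpf 28 and 9 were (background 16.5% and 18.7%). Between ages, in either sex, and for the interaction of sex and age, edgeR called 0 of the 88. At an unadjusted p under 0.05 there were 9 in ovaries, 11 in testes and 8 for the interaction. Of all 19292 tested genes, 2215, 2514 and 1952 were under that value in these comparisons. DESeq2 called 1 of the 88 between ages in ovaries, where it called 115 of all genes up and 67 down, and 0 otherwise. That gene, fzd1, singled out after its values were seen, was 6.92 and 6.73 CPM in ovaries at 25 dpf and 2.69, 2.09 and 2.55 at 30 dpf, without overlap (log2 fold change -1.47, SE 0.285, edgeR adjusted p = 0.28). The background of edgeR calls was 0% for age in ovaries, 0.00518% for age in testes and 0% for the interaction.

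Among the ligands, 4 of 12 tested were higher in testes over both ages (33.3%, against 21.3% of all genes). None was higher in ovaries (0%, against 21.9%). wnt5b was 4.97 to 11.9 CPM in ovaries and 14.6 to 50.5 in testes, without overlap (log2 fold change -1.70, SE 0.283, edgeR adjusted p = 0.000783). wnt7a (ENSDARG00000044827), wnt7b and wnt9a, at -1.85, -1.97 and -1.74, were the others, but the call of wnt9a was lost without a filter on low counts (edgeR adjusted p = 0.0523), in an additive model of sex and age (edgeR adjusted p = 0.0647), and without either ovary at 25 dpf, ovary 1 or 2 at 30 dpf or any of the testes at 30 dpf (edgeR adjusted p = 0.0529 to 0.138). At 30 dpf 1 of the 12 was called higher in ovaries (8.33%, against 18.7% of all genes) and 3 in testes (25%, against 16.5%). At 25 dpf 0 were called higher in ovaries (0%, against 8.64%) and 1 in testes (8.33%, against 4.59%). The R-spondin rspo3, at -1.22, and its receptor lgr4, at -1.26, were also higher in testes over both ages. They were 2 of 5 genes in that role (40%, against 21.3% of all genes).

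Receptors and Dishevelled genes had the largest share of calls. Of 18, 8 were higher in testes (44.4%, against 21.3% of all genes) and 2 in ovaries (11.1%, against 21.9%). fzd1 was 2.09 to 6.92 CPM in ovaries and 9.69 to 16.9 in testes (log2 fold change -1.70, SE 0.19, edgeR adjusted p = 7.73e-05). fzd4, the receptor of Norrin, had -1.54 and fzd3 (ENSDARG00000021664) had -1.47. fzd5 went the other way. It was 3.16 to 19.6 CPM in ovaries and at most 2.51 in testes, with no count in testis 2 at 25 dpf (log2 fold change 3.24, SE 0.67, edgeR adjusted p = 0.00281).

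In the destruction complex, gsk3b, a kinase that phosphorylates β-catenin, was 28.3 to 48.7 CPM in ovaries and 70.7 to 116 in testes (log2 fold change -1.31, SE 0.185, edgeR adjusted p = 0.000293). A gsk3a gene (ENSDARG00000015681) was 143.6 to 229 CPM in ovaries and 124.5 to 179.5 in testes, and was not called. The other gsk3a gene and gsk3bb were not called either. apc, a scaffold of the complex, was at -0.82, and gsk3b and apc were the 2 of 8 tested genes that were called. Of 8 catenin and junction genes only cdh2, N-cadherin, was called over both ages (12.5%, against 21.3% of all genes higher in testes). It was at -1.24 and thus higher in testes (edgeR adjusted p = 0.000287). Among the 15 nuclear factors 4 were higher in testes (26.7%) and 3 in ovaries (20%). These shares, and the 25% of the destruction complex, were near the 21.3% and 21.9% of all genes. Of the TLE genes, tle5, at -1.43, and tle2b, at -0.88, were higher in testes and tle3 (ENSDARG00000069006), at 0.98, was higher in ovaries. bcl9l, a coactivator that binds β-catenin, was higher in testes, at -0.97.

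Of 13 secreted and membrane inhibitors, 5 were called higher in testes over both ages (38.5%, against 21.3% of all genes), 2 at 25 dpf (15.4%, against 4.59%) and 7 at 30 dpf (53.8%, against 16.5%), and 0 higher in ovaries. The ligands, R-spondins, destruction complex and catenin genes also had 0 called higher in ovaries over both ages. kremen1, a Dickkopf receptor, was 3.49 to 9.89 CPM in ovaries and 17.6 to 41.5 in testes (log2 fold change -2.00, SE 0.289, edgeR adjusted p = 0.000334). dkk1a had -2.23 with at most 3 counts in any ovary, so that its fitted value is no bound. wif1, which binds Wnt ligands, had -2.11 and dkk3 (ENSDARG00000070683) had -1.20. Of the 9 tested genes listed as targets, 2 were called in each direction over both ages. That is 22.2% each way, near the 21.3% (testes) and 21.9% (ovaries) of all genes. nkd1, a feedback inhibitor, and ccnd1, cyclin D1, were higher in testes, at -0.98 and -0.75. cdx4 and a myc gene (ENSDARG00000007241) were higher in ovaries, at 2.59 and 0.68, with cdx4 at 6.53 to 12.04 CPM in ovaries and at most 3.3 in testes. The other myc gene (ENSDARG00000045695) was not called, at 4.97 to 25.9 CPM in ovaries and 19.3 to 45.6 in testes. Without testis 1 at 25 dpf, which held the muscle markers, 30 of the list were higher in testes and 7 in ovaries over both ages. With each gonad left out in turn, 2139 to 4245 of all genes were higher in testes and 3354 to 4360 in ovaries. Without ovary 2 at 25 dpf, the calls of wnt7a, wnt7b, wnt9a, tle2b, lgr4, rspo3, dkk1a, wif1 and ccnd1 were lost. Without ovary 1 at 25 dpf, those of wnt7a, wnt9a, tle2b, dkk1a and wif1 were lost. Either of these fits left 1 ovary at 25 dpf.

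**Figure D4:**
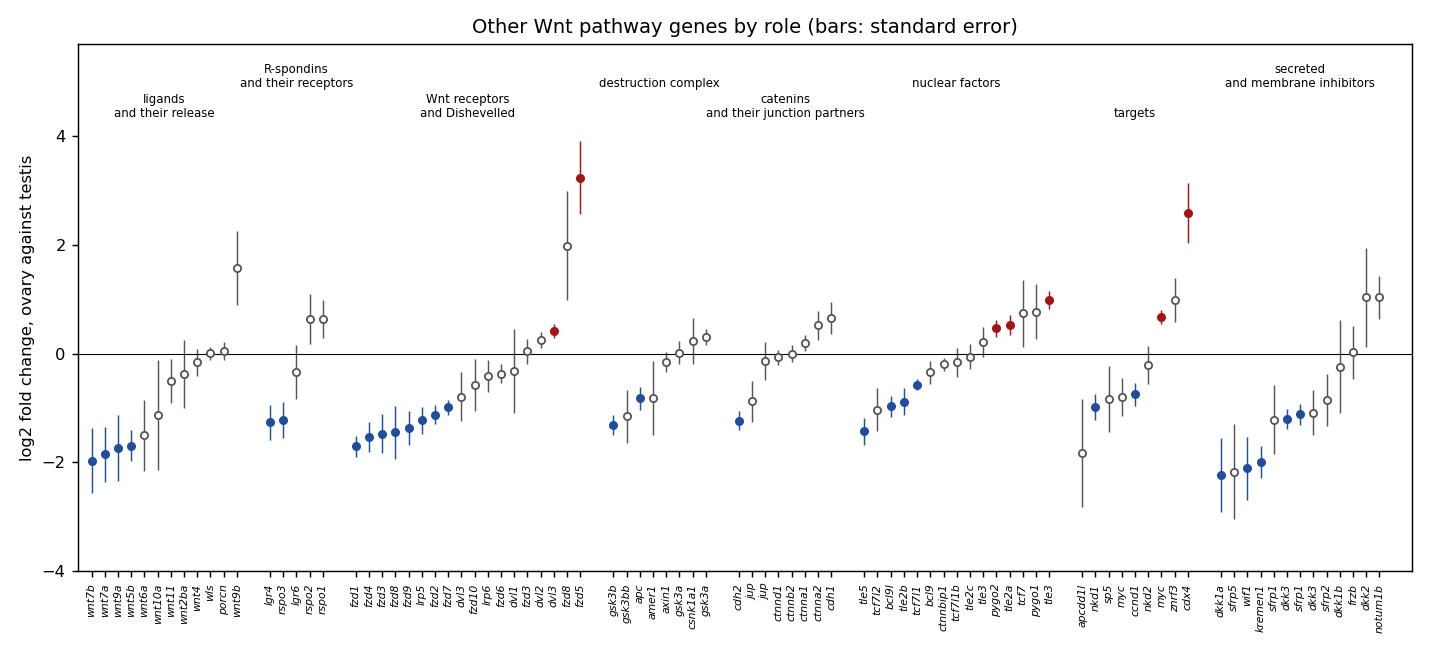
Log2 fold change of ovary against testis over both ages (vertical, linear) of the 88 tested Wnt pathway genes, grouped by role and ordered within each role, with edgeR standard errors as bars. Filled blue points were called higher in testes, filled red points higher in ovaries and open points were not called, and the 28 blue points outnumber the 7 red ones.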

How the data were processed

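According to the submitters' notes and the study's methods, reads were checked with MultiQC 0.9 and FastQC 0.11.8, mapped with HISAT2 2.0.5 to GRCz11, sorted with SAMtools 1.5, cleared of duplicates with Picard and counted on exons per gene with HTSeq 0.9.1 in reverse-stranded mode. The authors deposited raw counts, with no normalization. Removing duplicates lowers the counts of abundant genes most. Whether the libraries keep the strand could not be read from the table.

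From these counts, genes were filtered with filterByExpr, scaled by TMM and fitted with edgeR 4.0.16 in R 4.3.3 (quasi-likelihood, 1 mean per group, all 12 gonads), with Benjamini-Hochberg adjustment at 0.05. Standard errors are the fold change over the root of F, and 95% intervals use the t distribution of the fit. CPM refers to counts of tested genes times the TMM factor. Correlations used log2(CPM + 1). Gene names come from the reference table, which named 29201 of the 32520 IDs. Of the Wnt IDs, 30 share a symbol with another ID, and their reads may be split between copies. Levels were not compared between genes, since no gene lengths were used.

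The members and gene lists were chosen with earlier results of these data known. The genes named were the members, 8 relatives, up to 4 called genes per role with the largest change over both ages, and the 5 genes most correlated with each member. Alternatives were DESeq2 1.42.0, other scalings and filters, robust dispersion, an additive model, only the groups compared, a replicate block, each gonad left out, and other pseudocounts and Spearman's rho for the correlations. No pair of libraries within a group agreed within sampling noise. The fits were tested on simulated data.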

Additional observations from a re-analysis of the deposited data

Results flagged for a closer look

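Of the genes named, 4 had 1 testis at 25 dpf far from the other 3, by the gap to the nearest value as a share of the range in the group of 4. Chance flags about 1 in 20 such groups, and 37 genes were looked at. wnt4 was 58.8 CPM in testis 2 (gap 0.913 of the range) and the myc gene ENSDARG00000007241 was 73.2 CPM in the same gonad (gap 0.897), both above the others. lgr4 was 13.5 CPM in testis 4 (gap 0.867) and fzd4 was 48.4 CPM there (gap 0.863), both below the others. No member was among them.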

How the results depend on the processing

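ctnnb1, axin2 and lef1 were not called in any comparison under DESeq2, other filters, robust dispersion, the replicate block or relative log expression scaling, and ctnnb1 was called over both ages only with upper-quartile scaling (-0.35). myoc kept its call over both ages under all 7 settings that gave a value, other than leaving out a gonad. It was called at 25 dpf by DESeq2 (-3.69) and at 30 dpf by DESeq2 (-2.42) and in the fit of the compared groups (-2.45).

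Wnt genes higher in ovaries numbered 4 over both ages with upper-quartile scaling and 5 at 30 dpf with at least 10 counts in every gonad. At 25 dpf they numbered 2 with DESeq2 and 0 with at least 10 counts, the block or the compared groups, and those higher in testes 6 without a filter, 4 with the block and 4 with the compared groups. Of all genes at 25 dpf, 937 (block) and 850 (compared groups) were higher in ovaries, and 1696 (DESeq2), 581 (no filter), 368 (block) and 346 (compared groups) in testes. DESeq2 called 66 genes up and 36 down for the dependence on age, where no filter, at least 10 counts and robust dispersion each gave 1 down, 115 up and 67 down between ages in ovaries (1 Wnt gene down), and 251 up and 145 down in testes. In testes, up calls were 0 with upper-quartile scaling, the block or the compared groups, 7 without a filter, 12 with at least 10 counts and 7 with robust dispersion. Same-numbered gonads did not deviate together on average (mean r = -0.00345 over 15 pairs, 2 above 0.1). With so few gonads per group, this check could miss a weak or partial pairing. The block changed no call of ctnnb1, axin2, lef1 or myoc. The call of wnt7b over both ages was lost under the block (edgeR adjusted p = 0.0742).

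Leaving out each gonad, the axin2 difference at 30 dpf was -0.39 to 1.19 (reversed and called at 1.19 without testis 1 at 30 dpf) and that of lef1 0.24 to 1.71. The change with age in testes was -2.18 to -0.58 for axin2 and -2.19 to -0.70 for lef1. myoc was -3.29 to -2.32 over both ages and -2.91 to -1.83 at 30 dpf, called there without testis 4 at 25 dpf (edgeR adjusted p = 0.0352). Genes higher in testes numbered 2139 to 4245 over both ages and 1985 to 3279 at 30 dpf. Those higher in ovaries numbered 3354 to 4360 and 2679 to 3906. Wnt genes higher in testes numbered 19 to 30 and 19 to 28, and those higher in ovaries 4 to 9 and 4 to 11. At 25 dpf, 81 to 1774 genes were higher in ovaries and 11 to 921 in testes, with 0 to 1 and 0 to 10 Wnt genes. For the dependence on age 0 to 3 were up and 0 to 3 down, between ages in ovaries 0 to 2 and 0 to 1, and in testes 0 to 46 and 0 to 24, with 0 to 1 Wnt gene each way. Leaving out an ovary at 25 dpf leaves 1 gonad, assumed to vary like the other groups. The cause of these changes was not tested. With Spearman's rho none of the 5 genes most correlated with axin2 or myoc remained, 2 of those of lef1 did and 3 of those of ctnnb1.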
